A study of Mus musculus with 8 samples.

Results

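Vsig4 and 9 other genes of tissue-resident macrophages were followed in quadriceps muscle RNA of mice whose libraries are labelled wild type (WT) or Mss51 knockout (KO). The 10 genes, of 43239 gene names in the tables, are Vsig4, Cd163, Mrc1, Lyve1, Folr2, C1qa, C1qb, C1qc, Cd68 and Adgre1, and they were taken by name. Vsig4 was chosen by its difference in FPKM between the labels, already known, so that difference is a description here and carries no test. The question put to the data was whether Vsig4 differed by genotype label alone or together with the other 9. All 10 passed the filter on low values, a mean of at least 1 FPKM (fragments per kilobase of transcript, scaled to the mapped fragments of the library) over the 8 libraries, which 11878 genes passed. The group means of Vsig4 were above it under both labels.

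The libraries came from 4 WT and 4 Mss51-/- female mice aged 6 months. The quadriceps was frozen in cold isopentane and RNA was extracted with TRIzol. Libraries were made after oligo(dT) selection and Ribo-Zero removal of ribosomal RNA and were read as pairs on an Illumina HiSeq instrument. The kind of Mss51 allele and the mouse strain are not given in the sources used here, nor is any pooling, and the p-values measure only the spread between these 8 libraries.

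Resident macrophages lie in the connective tissue between muscle fibres, where they take up dying cells, haemoglobin and debris and depend on signals through the receptor Csf1r. Vsig4, also named CRIg, is a macrophage receptor of the immunoglobulin superfamily that binds the complement fragments C3b and iC3b and is related to the B7 family of T cell regulators. Complement C1q, which starts the classical pathway upstream of those fragments, is itself made largely by macrophages. In whole muscle, fewer cells of a type and less RNA per cell cannot be told apart.

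The FPKM of Mss51, the gene named in the labels, was 22.9, 37.0, 27.5 and 24.8 in WT replicates 1 to 4 and 340, 201, 216 and 207 in KO replicates 1 to 4. It was higher in every library labelled KO, with means of 28.0 ± 6.28 and 241 ± 66.1 FPKM (SD, n = 4) and a log2 fold change of 3.07 (SE 0.20, limma adjusted p = 0.000643). A two-sided exact permutation test gave p = 0.0286, the smallest that 4 libraries against 4 allow. Loss of the transcript would give the other direction, but the kind of allele, and so the transcript it leaves, is not known here. Whether the labels are right was not tested, so every direction given here is between the libraries labelled KO and the libraries labelled WT. Summed FPKM over named genes lay between 620131 and 718052 in 6 libraries and was 1123846 in WT replicate 3 and 1678971 in KO replicate 4. A single entry made up 41.8% of that sum in WT replicate 3 (Gm22953) and 54.9% in KO replicate 4 (Atg7), and each was listed at 0 in the other 7 libraries. Depth could not be recovered from the FPKM, so no counting interval is given for the low values of Vsig4.

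In the files, Vsig4 (ENSMUSG00000044206) lies on the minus strand of chromosome X, from 96247199 to 96293520 in the mouse build mm10. The chains of C1q form a cluster of 18.7 kb on the minus strand of chromosome 4, with C1qb from 136880129 to 136886187, C1qc from 136889220 to 136893065 and C1qa from 136895917 to 136898803. The others are scattered: Cd163 on chromosome 6 (124304628 to 124330527), Mrc1 on chromosome 2 (14229197 to 14332094), Cd68 on chromosome 11 (69664213 to 69666153) and Adgre1 on chromosome 17 (57358686 to 57483529). Lyve1 (110850607 to 110862953) and Folr2 (101839990 to 101845381) are on chromosome 7. Mss51 lies on chromosome 14. All 10 are protein-coding genes in GENCODE M21. The GENCODE span of Folr2 (101839988 to 101857194), longer than the locus above, overlaps the antisense gene Gm10602 and the pseudogene Gm45319. Whether either lies within the locus above was not checked. Without a stated strand setting, reads of genes that overlap there could not be told apart by strand. Mrc1 contains the microRNA gene Mir511.

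RefSeq (GRCm38.p6) promoter sequences matched 7 of the 10 genes, with 8 promoters. Entries for C1qa, Lyve1 and Adgre1 were missing. The 250 bases before each start were searched on both strands for GAGGAA, the core of the PU box bound by the myeloid factor PU.1. It was found in 5 of the 8 promoters, those of Vsig4, Mrc1, C1qb, C1qc and Cd68, and in 23.3% of 32851 RefSeq promoters. In Vsig4 it occurred 155 and 53 bases before the start. The MAF core motif TGCTGA occurred in both Folr2 promoters and that of C1qb, against 16.1% of all promoters. A match is a description of the letters and not a site of binding. Upstream sequences of 4 genes are shown, to set Vsig4 beside C1q chains of the same complement pathway and beside Cd163, the gene whose ratio to Vsig4 differed most. They are 5′ to 3′, trimmed to the part outside the transcribed locus, with the PU box or its reverse complement in capitals. The match nearer to the start of Vsig4 falls outside the part shown. The regions are chrX:96293521-96293688 (minus strand), chr4:136886201-136886450 (minus), chr4:136893066-136893164 (minus) and chr6:124304401-124304627 (plus).
Vsig4: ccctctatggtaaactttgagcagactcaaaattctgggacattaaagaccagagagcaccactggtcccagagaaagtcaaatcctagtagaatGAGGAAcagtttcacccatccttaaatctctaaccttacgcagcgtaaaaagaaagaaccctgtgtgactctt
C1qb: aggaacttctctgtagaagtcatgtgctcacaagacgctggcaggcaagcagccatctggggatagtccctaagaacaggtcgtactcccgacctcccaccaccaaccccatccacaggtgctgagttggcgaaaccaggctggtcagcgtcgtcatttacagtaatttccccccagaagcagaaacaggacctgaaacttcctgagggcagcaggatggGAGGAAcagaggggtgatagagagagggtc
C1qc: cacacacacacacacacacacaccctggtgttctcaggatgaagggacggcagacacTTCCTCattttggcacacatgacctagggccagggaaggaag
Cd163: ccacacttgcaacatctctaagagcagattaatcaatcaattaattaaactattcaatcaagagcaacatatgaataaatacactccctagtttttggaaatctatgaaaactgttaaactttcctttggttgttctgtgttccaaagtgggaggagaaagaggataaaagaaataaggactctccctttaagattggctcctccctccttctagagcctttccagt

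Vsig4 was the least abundant of the 10 genes and stood higher in the libraries labelled KO. Its FPKM was 0.923, 1.03, 1.14 and 1.10 in WT replicates 1 to 4 and 2.60, 2.82, 2.16 and 1.94 in KO replicates 1 to 4. Every library labelled KO was above every library labelled WT, the lowest KO value being 1.69 times the highest WT value. The means were 1.05 ± 0.0961 and 2.38 ± 0.403 FPKM (SD, n = 4), a ratio of 2.27. On the log2(FPKM + 0.5) scale, which understates the change of low genes, the difference was 0.89 (SE 0.14). Among all 11878 genes tested, 131, or 1.10%, had a log2 fold change at least that high. With an adjusted p of 0.184 over all genes (limma), Vsig4 was not among the 6 genes, 0.0505% of those tested, that passed the threshold of 0.05, all 6 higher in the KO libraries (0% lower). Without KO replicate 1, which had the highest Mss51, 125 genes passed, and Vsig4 was not one of them. Rescaling to an equal sum, here called TPM, used named genes alone. It left out the entries without a gene name, which carried 65.8% to 93.2% of summed FPKM. After this rescaling the groups of Vsig4 overlapped, at 1.02 to 1.65 in the WT libraries and 1.15 to 4.09 in the KO libraries, with KO replicate 4 at 1.15. When the single entry that dominates WT replicate 3 and that of KO replicate 4 were left out of the sum, they did not overlap, at 1.49 to 1.75 and 2.56 to 4.09.

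**Figure D1:**
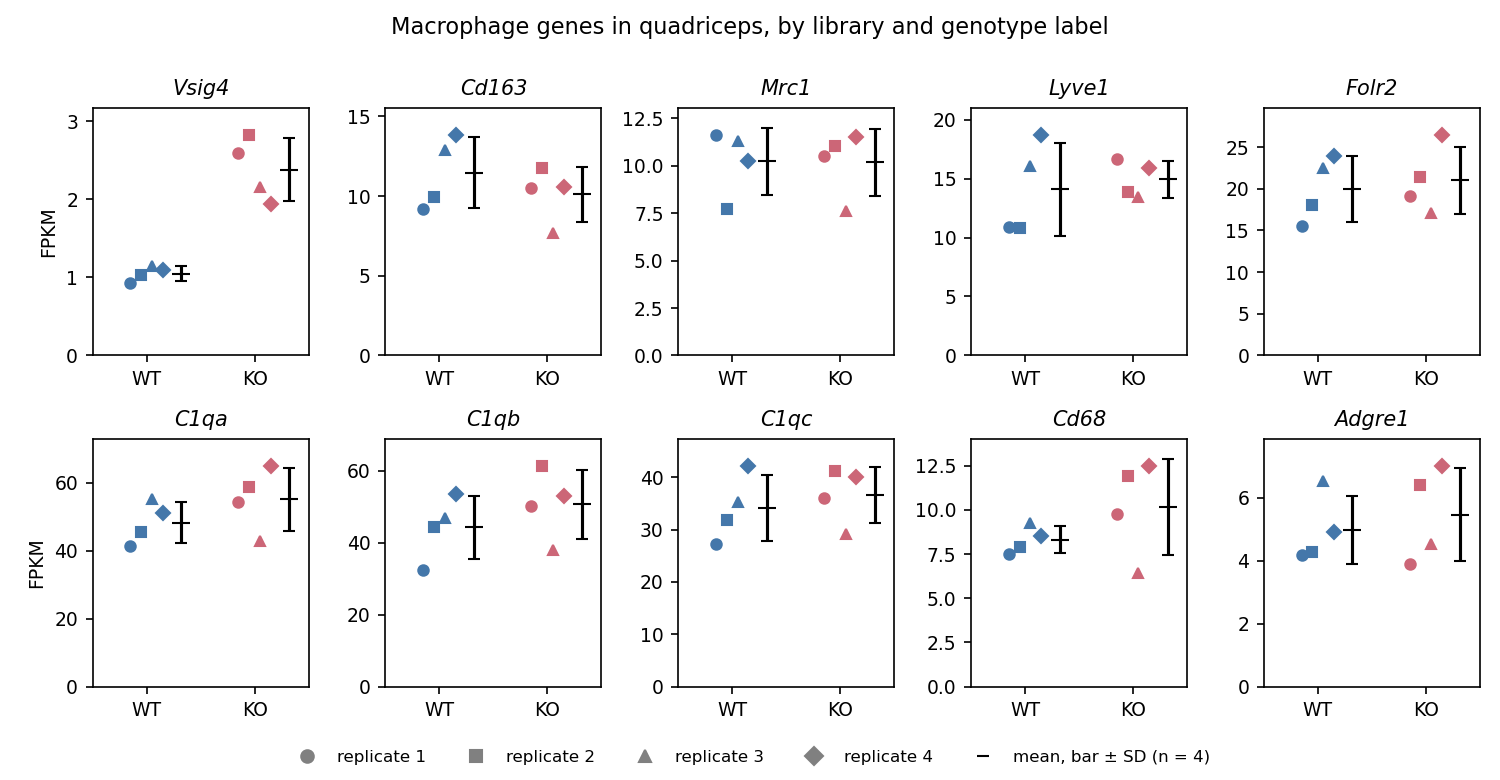
FPKM of the 10 macrophage genes in each library, by genotype label, with 1 panel per gene, a linear axis that starts at 0 in each panel, and the mean ± SD of each group (n = 4). The KO libraries of Vsig4 lie between 1.94 and 2.82 FPKM, above the WT libraries at 0.923 to 1.14, while in the other 9 panels the groups overlap.

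In contrast to Vsig4, the genes for scavenger receptors overlapped between the labels. Cd163, the receptor for complexes of haemoglobin and haptoglobin, had 9.18, 9.97, 12.9 and 13.8 FPKM in WT replicates 1 to 4 and 10.5, 11.7, 7.68 and 10.6 in KO replicates 1 to 4. Its groups overlapped, with the lowest value in KO replicate 3 and the highest in WT replicate 4. The means were 11.5 ± 2.24 and 10.1 ± 1.72 FPKM, and the log2 fold change was -0.17 (SE 0.16, limma adjusted p = 0.766).

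Mrc1, the mannose receptor CD206, had 11.6, 7.74, 11.3 and 10.2 FPKM in the WT libraries and 10.5, 11.0, 7.61 and 11.5 in the KO libraries. Each group held 1 library well below its other 3, WT replicate 2 and KO replicate 3, and both means were 10.2 ± 1.76 FPKM. The log2 fold change was -0.01 (SE 0.16, limma adjusted p = 0.993).

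Lyve1, a hyaluronan receptor that lymphatic endothelium also makes, had 10.9, 10.8, 16.1 and 18.7 FPKM in the WT libraries and 16.7, 13.8, 13.4 and 15.9 in the KO libraries. The WT libraries held both the lowest and the highest value. The means were 14.1 ± 3.93 and 14.9 ± 1.58 FPKM, with a log2 fold change of 0.11 (SE 0.18, limma adjusted p = 0.861). The summed level of 8 other lymphatic endothelial markers was 20.02 to 30.2 FPKM in the WT libraries and 17.4 to 25.2 in the KO libraries. Their part in the level of Lyve1 was not tested.

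Folr2, the folate receptor beta of resident macrophages, had 15.5, 18.0, 22.6 and 24.0 FPKM in the WT libraries and 19.2, 21.4, 17.1 and 26.4 in the KO libraries. The groups overlapped over most of their range. The means were 20.01 ± 3.95 and 21.0 ± 4.00 FPKM, with a log2 fold change of 0.07 (SE 0.17, limma adjusted p = 0.916).

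C1qa, C1qb and C1qc, whose products assemble into C1q, were the most abundant of the 10 genes. C1qa had 41.5, 45.4, 55.2 and 51.2 FPKM in the WT libraries and 54.3, 58.8, 42.9 and 64.9 in the KO libraries. C1qb had 32.5, 44.4, 46.9 and 53.5 FPKM in the WT libraries and 50.3, 61.3, 38.0 and 53.2 in the KO libraries. C1qc had 27.3, 31.8, 35.3 and 42.1 FPKM in the WT libraries and 36.0, 41.2, 29.2 and 40.0 in the KO libraries. For each chain WT replicate 1 was the lowest library and KO replicate 3 the next lowest, so the groups overlapped. Their log2 fold changes were 0.18 (SE 0.14, limma adjusted p = 0.704) for C1qa, 0.19 (SE 0.18, adjusted p = 0.757) for C1qb and 0.11 (SE 0.15, adjusted p = 0.847) for C1qc. Within a library, C1qb was 0.914 ± 0.119 of C1qa in the WT libraries and 0.918 ± 0.0932 in the KO libraries, and C1qc was 0.705 ± 0.0822 and 0.665 ± 0.0360 of it.

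Cd68, a glycoprotein of macrophage lysosomes and endosomes, had 7.50, 7.91, 9.25 and 8.54 FPKM in the WT libraries and 9.79, 11.9, 6.45 and 12.5 in the KO libraries. The KO libraries other than replicate 3 were above every WT library, and replicate 3 was below all of them. The means were 8.30 ± 0.764 and 10.2 ± 2.73 FPKM, and the log2 fold change of 0.24 (SE 0.19, limma adjusted p = 0.717) was the highest of the 9. It was 0.43 without KO replicate 3, 0.15 without KO replicate 2 and 0.13 without KO replicate 4.

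Adgre1, which encodes the adhesion receptor F4/80, had 4.17, 4.28, 6.52 and 4.91 FPKM in the WT libraries and 3.91, 6.40, 4.55 and 7.003 in the KO libraries. KO libraries were both the lowest and the highest. The means were 4.97 ± 1.09 and 5.47 ± 1.47 FPKM, with a log2 fold change of 0.11 (SE 0.20, limma adjusted p = 0.883).

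Across the 9 genes other than Vsig4 the median log2 fold change was 0.11, with a range of -0.17 to 0.24, and 7 of 9 were above 0. Over all genes tested the median was 0.02 and 54.4% were above 0. None of the 10 genes passed the limma threshold, which 0.0505% of all genes passed. Vsig4, 1 of the 10, had an unadjusted p under 0.05, against 10.3% of all genes in either direction and 7.5% with the KO libraries higher. The groups failed to overlap for 1 of the 10 genes, again Vsig4, against 5.5% of all genes in either direction and 3.89% with the KO libraries higher. Since Vsig4 was chosen for its difference, nothing is read from that count. The directions of Lyve1, Folr2, C1qc and Adgre1 turned when each library was given the same summed FPKM, with or without the 2 dominant entries, and those of C1qa and C1qb also turned with the entries kept in. The 7 of 9 above 0 thus became 1 of 9 with the entries and 3 of 9 without them, and 5 of 9 when KO replicate 4 was left out. The median of all genes moved to -0.18 and -0.10 under those scalings.

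**Figure D2:**
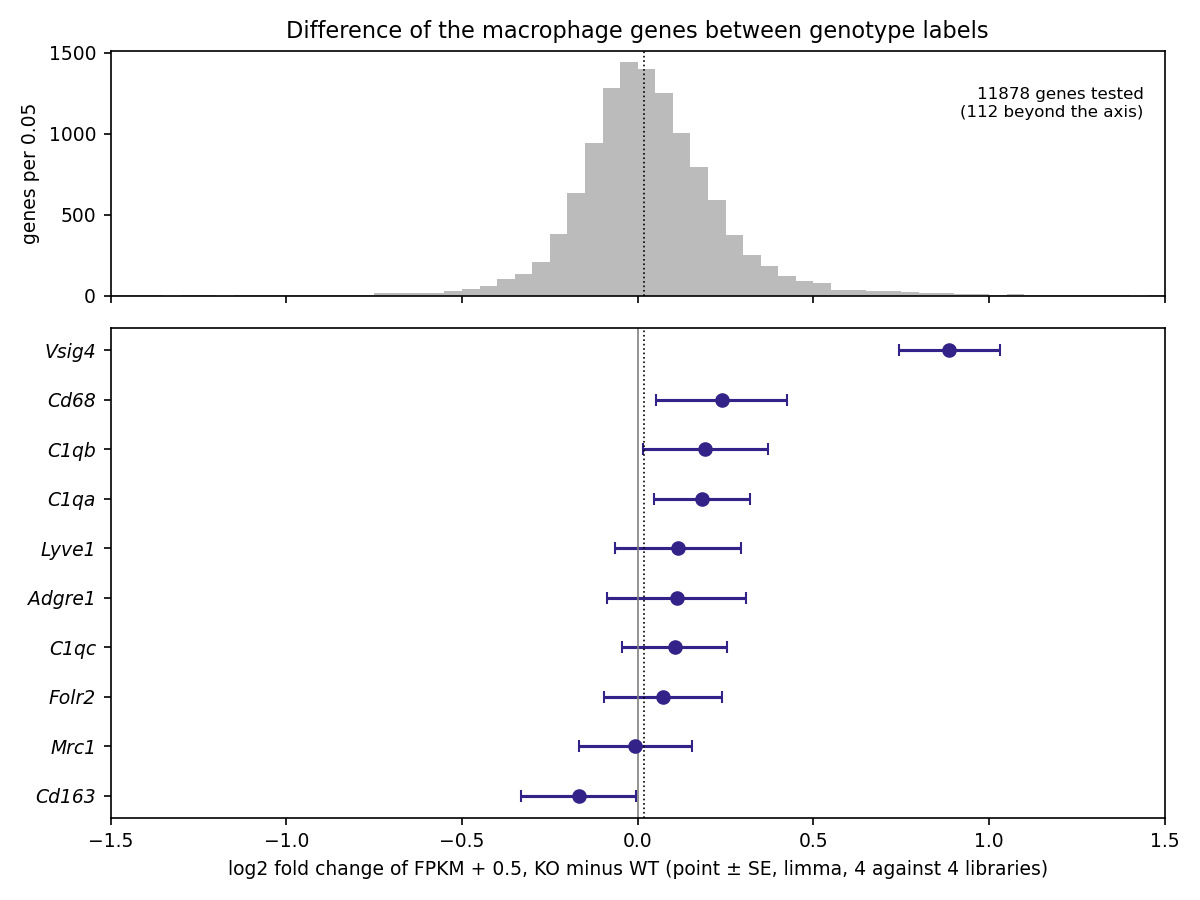
Log2 fold changes (KO minus WT) of all 11878 genes as a histogram, of which 112 lie beyond the axis, above the 10 macrophage genes as points with the SE of the limma fit. Vsig4 lies at 0.89, and the other 9 lie between -0.17 and 0.24 around the median of all genes at 0.02.

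In order of mean FPKM over the 8 libraries, C1qa (51.8) was followed by C1qb (47.5), C1qc (35.4), Folr2 (20.5), Lyve1 (14.5), Cd163 (10.8), Mrc1 (10.2), Cd68 (9.23), Adgre1 (5.22) and Vsig4 (1.71). The order of neighbours held in 8 of 8 libraries except between C1qa and C1qb (6 of 8), Cd163 and Mrc1 (5 of 8) and Mrc1 and Cd68 (5 of 8). These neighbours did not differ beyond their spread. Vsig4 was below Adgre1 in every library under both labels.

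Ratios between genes of the same library do not depend on how a library is scaled. Relative to Cd163, Vsig4 stood at 10.1%, 10.3%, 8.88% and 7.94% in WT replicates 1 to 4 and at 24.8%, 24.1%, 28.2% and 18.3% in KO replicates 1 to 4. The groups did not overlap, and the means were 9.30 ± 1.10% and 23.8 ± 4.09% (SD, n = 4). Relative to C1qa, Vsig4 stood at 2.07% to 2.27% in the WT libraries and 2.99% to 5.04% in the KO libraries, with KO replicate 4 the lowest of the latter. Relative to Cd68 it stood at 12.3% to 13% and 15.5% to 33.5%, and relative to Adgre1 at 17.5% to 24.1% and 27.7% to 66.5%.

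The ratio of Vsig4 to each of the 9 genes was higher in every KO library than in every WT library. The log2 difference of the ratio ranged from 0.92 for Cd68 to 1.35 for Cd163. These ratios share Vsig4, whose values chose it, and are given without a test. Against the mean log2 level of all 9, Vsig4 lay at -3.36, -3.33, -3.56 and -3.61 in the WT libraries and at -2.53, -2.61, -2.44 and -3.11 in the KO libraries. The group means were -3.47 ± 0.14 and -2.67 ± 0.30 (SD, n = 4). On this scale 0.79 of the log2 difference of 0.89 of Vsig4 remained after the mean of the 9 genes was taken off. The size of that excess depends on the pseudocount, being 1.005 with 0.1 and 0.63 with 1. KO replicate 4 lay nearest to the WT libraries in this measure.

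**Figure D3:**
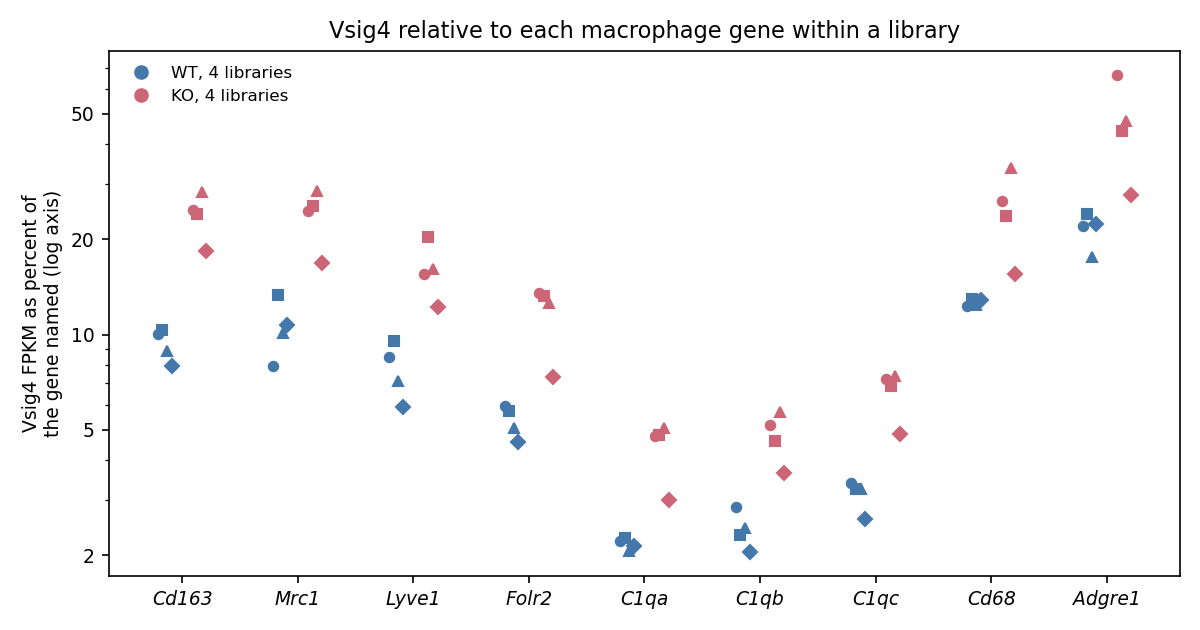
Vsig4 FPKM as a percent of each of the other 9 genes, by library, on a log axis, with WT and KO libraries side by side for each gene. For each gene the KO libraries lie above the WT libraries, for Cd163 at 18.3% to 28.2% against 7.94% to 10.3%.

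The mean log2 level of the 9 genes, relative to its WT mean, was -0.22, -0.15, 0.18 and 0.19 in WT replicates 1 to 4 and 0.07, 0.25, -0.24 and 0.30 in KO replicates 1 to 4. Libraries low in these genes were thus found under both labels, and KO replicate 3 was the lowest of the 8. Summed FPKM of the 9 genes was 160 to 227 in the WT libraries (mean 196 ± 31.04) and 167 to 242 in the KO libraries (mean 214 ± 34.4). Vsig4 in KO replicate 3 was nevertheless 2.16 FPKM, above every WT library.

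**Figure D4:**
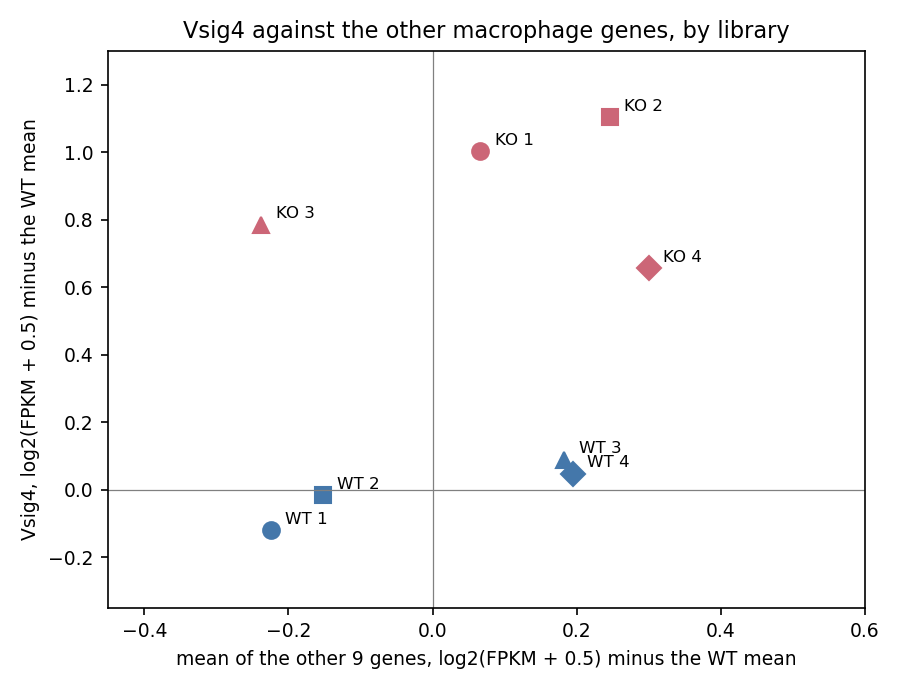
Each library by the mean log2(FPKM + 0.5) of the other 9 genes (horizontal) and of Vsig4 (vertical), both relative to the WT mean. The 9-gene mean runs from -0.24 to 0.30 with both labels mixed, while Vsig4 lies at 0.66 to 1.10 in the KO libraries and -0.12 to 0.09 in the WT libraries.

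Among the 36 ratios between pairs of the other 9 genes, 5 did not overlap between the labels, and Cd163 was the gene that stood lower in the KO libraries in all 5. Cd163 was 55.4% to 59.3% of Folr2 in the WT libraries and 40.0% to 54.9% in the KO libraries. It was 22.0% to 27.0% and 16.3% to 19.95% of C1qa, 22.4% to 28.3% and 19.2% to 20.9% of C1qb, and 31.4% to 36.5% and 26.3% to 29.1% of C1qc. Relative to Cd68 it was 122% to 162% and 84.8% to 119%. Over the 36 pairs the log2 difference of the ratio ranged from -0.43 to 0.13, its sign set by which gene is divided by which. In size these lay below the 0.92 to 1.35 for Vsig4, which was chosen for its difference. These ratios share genes, no test was made of them, and no share over other pairs of genes was taken.

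Across the 8 libraries, Vsig4 correlated with the other 9 genes at a Pearson r of -0.18 (Cd163) to 0.49 (C1qb), median 0.29. With each group centred on its mean the range was 0.02 to 0.57. The 36 pairs among the 9 had r from 0.27 to 0.96, median 0.67, and C1qb with C1qc gave the 0.96. These are descriptions over n = 8 libraries that share depth and tissue makeup. Of 11877 other genes ranked by r with Vsig4, the first of the 9 was C1qb at rank 2205. After each group was centred, which takes out the difference between the labels, Cd163 stood at rank 806 and C1qb at rank 836.

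Genes most like Vsig4 over the 8 libraries were Htatip2 (r = 0.98), Mterf2 (0.97), Taf12 (0.97), Hrsp12 (0.96) and Npm3 (0.96), beside 2 predicted genes. Their log2 fold changes were 0.39, 0.42, 0.63, 0.37 and 0.21, a direction that their likeness to Vsig4, itself chosen for its difference, fixes, so they carry no test here. Mterf2, a mitochondrial transcription termination factor family member, had means of 9.78 ± 0.419 and 13.3 ± 0.892 FPKM. Taf12, one of the factors bound to TATA-binding protein in TFIID, had 25.0 ± 1.26 and 39.2 ± 5.64 FPKM. Neither is known as a macrophage marker. After each group was centred on its mean, genes most like Vsig4 included Pthlh (r = 0.98), Btf3l4 (0.98), Wtip (0.95) and Vps29 (0.94), over n = 8 libraries. Among genes of the macrophage and myeloid list and the further resident macrophage list, Ccl8 (r = 0.83, rank 199) and Lgmn (0.80, rank 316) were nearest over the 8 libraries. After each group was centred they stood at r = 0.25 (rank 3102) and 0.12 (rank 4359). The nearest of these lists were then Cd14 (r = 0.81, rank 82), Cd74 (0.80, rank 91) and Ptprc (0.75, rank 185). Ccr2, a chemokine receptor on other lists, stood nearer after centring, at r = 0.91 (rank 10), against -0.0012 over the 8 libraries. Cd14, a co-receptor for bacterial lipopolysaccharide, Ptprc, the leukocyte antigen CD45, and Ccr2 were picked for naming after their values were seen.

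The wider macrophage lists held no gene past the limma threshold, which 0.0505% of all genes passed. Nothing is read from a count of 0 against so low a share. Of 27 macrophage and myeloid genes 25 were tested, 9 above 0 and 16 below, with a median log2 fold change of -0.10 and 1 with an unadjusted p under 0.05. Their summed level was 662 to 819 FPKM in the WT libraries and 657 to 857 in the KO libraries. Lgmn, the lysosomal protease legumain, was that 1 gene, with means of 18.3 ± 0.449 and 22.5 ± 2.64 FPKM, groups that did not overlap, and a log2 fold change of 0.29 (adjusted p = 0.353). Cd74, the invariant chain of MHC class II, had 162 ± 25.9 and 125 ± 28.2 FPKM (-0.39, adjusted p = 0.486), and the cathepsin gene Ctss 17.5 ± 2.37 and 21.1 ± 2.72 FPKM (0.26, adjusted p = 0.520).

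Of the 22 further resident macrophage genes, all were tested, with 12 above 0 and 10 below, a median of 0.03, and 2 with an unadjusted p under 0.05. Their summed level was 484 to 617 FPKM in the WT libraries and 484 to 652 in the KO libraries. Ccl8, a chemokine of resident macrophages, had 3.94, 4.04, 7.35 and 7.34 FPKM in the WT libraries and 11.2, 9.78, 9.06 and 11.9 in the KO libraries. Its groups did not overlap, and its log2 fold change of 0.88 (SE 0.21) was close in size to that of Vsig4 but did not pass the threshold (limma adjusted p = 0.344). Ccl24, another chemokine of these cells, had 6.09 ± 0.888 and 4.56 ± 1.22 FPKM (-0.40, adjusted p = 0.468), and the iron exporter Slc40a1 12.9 ± 0.906 and 10.7 ± 1.92 FPKM (-0.28, adjusted p = 0.502). Over both lists together 47 genes were tested, 3 had an unadjusted p under 0.05, against 10.3% of all genes, and 2 had KO libraries above all WT libraries, against 3.89% of all genes.

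**Figure D5:**
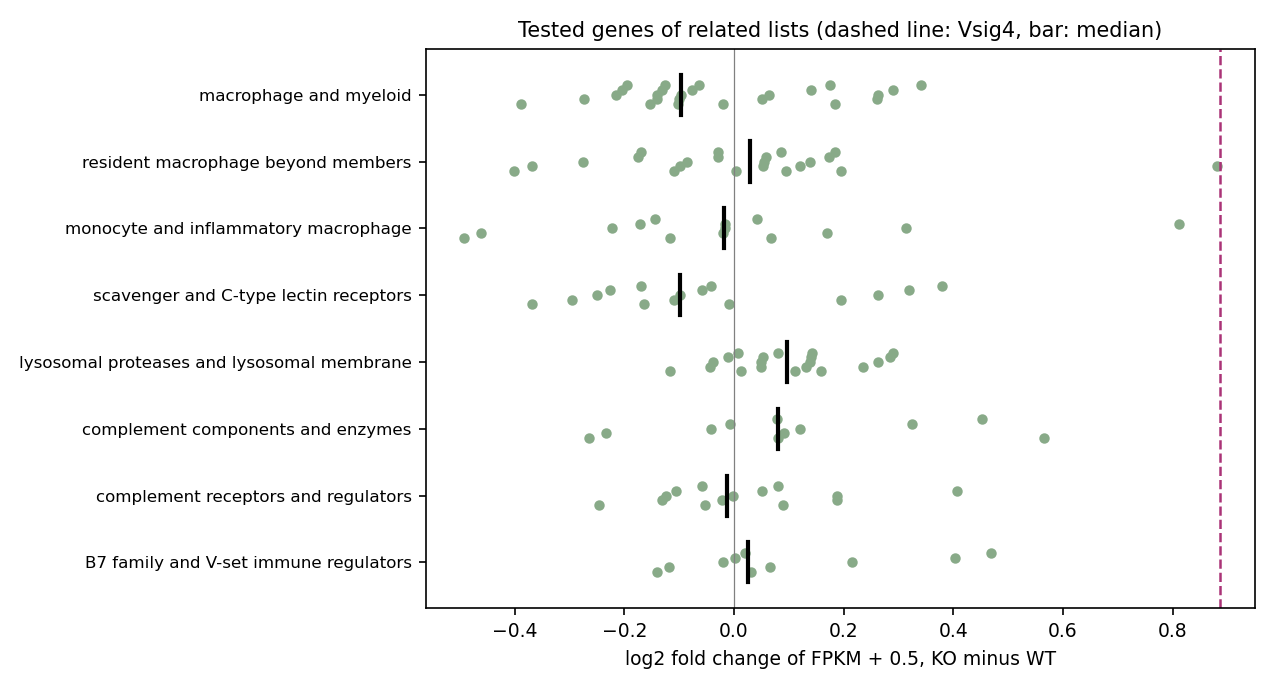
Log2 fold changes (KO minus WT) of the tested genes of related lists, 1 point per gene and a bar at each list's median, with Vsig4 as a dashed line at 0.89. The list medians lie near 0, at -0.10 for macrophage and myeloid genes and 0.03 for resident macrophage genes.

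Genes of the complement system were followed because Vsig4 is a complement receptor. Of 23 components and enzymes found, 11 were tested and 0 passed the limma threshold, with 7 above 0, 4 below, a median of 0.08 and 2 with an unadjusted p under 0.05. For these lists and those that follow, the shares over all genes tested are 54.4% above 0 and 10.3% with an unadjusted p under 0.05. The share past the limma threshold is 0.0505%, so a count of 0 past it is not read as a result. Masp1, a protease of the lectin pathway, had 1.53 ± 0.284 and 2.57 ± 0.837 FPKM (log2 fold change 0.57, adjusted p = 0.424). C8g, a chain of the membrane attack complex, had 1.77 ± 0.198 and 2.66 ± 0.738 FPKM (0.45, adjusted p = 0.442), and C1s1, the C1 protease that acts with C1q, 21.1 ± 1.93 and 18.0 ± 2.28 FPKM (-0.23, adjusted p = 0.499). Of 14 tested receptors and regulators of complement 6 were above 0 and 8 below, with a median of -0.01 and 0 past an adjusted or unadjusted p of 0.05.

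The other pathways of macrophages likewise held no gene past the limma threshold. In the colony stimulating factor 1 axis, 2 of 8 tested genes were above 0, with a median of -0.10 and 0 at an unadjusted p under 0.05. The receptor gene Csf1r had 11.9 ± 1.24 and 10.9 ± 2.44 FPKM (-0.14, adjusted p = 0.806) and its ligand gene Il34 6.60 ± 2.22 and 4.87 ± 2.48 FPKM (-0.46, adjusted p = 0.696). The value for Il34 was -0.73 without KO replicate 2, -0.22 without KO replicate 3 and -0.30 without WT replicate 1. In haemoglobin scavenging and haem iron recycling, the pathway of Cd163, 7 of 15 were above 0, with a median of -0.03 and 0 at an unadjusted p under 0.05. Haptoglobin (Hp) had 8.71 ± 2.59 and 6.60 ± 0.771 FPKM (-0.34, adjusted p = 0.598).

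In the clearance of dying cells 9 of 17 were above 0, with a median of 0.03 and 1 at an unadjusted p under 0.05. That 1 was the joined entry of Scarf1, a scavenger receptor, and Rilp, with 18.7 ± 2.24 and 23.4 ± 2.36 FPKM (log2 fold change 0.32, limma adjusted p = 0.372). The receptor kinase Axl had 38.0 ± 2.80 and 33.8 ± 3.68 FPKM (-0.17, adjusted p = 0.579), and the bridging protein Mfge8 33.9 ± 2.26 and 30.2 ± 3.17 FPKM (-0.17, adjusted p = 0.564). Of 20 lysosomal genes 16 were above 0, with a median of 0.10 and 2 at an unadjusted p under 0.05, against 54.4% and 10.3% of all genes. The counts above 0 of this and the other lists were not taken again after rescaling to an equal sum. That rescaling moved the median of all genes to -0.18 with the dominant entries and -0.10 without them. Of 15 scavenger and C-type lectin receptors 4 were above 0, with a median of -0.10 and 0 at an unadjusted p under 0.05. Clec7a, the beta-glucan receptor dectin 1, had 0.969 ± 0.153 and 1.34 ± 0.253 FPKM (0.32, adjusted p = 0.552). Cd209a, a C-type lectin of dendritic cells and macrophages, had 4.87 ± 1.16 and 3.60 ± 0.513 FPKM (-0.37, adjusted p = 0.531).

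Macrophage transcription factors split evenly, 10 of 20 above 0 with a median of -0.04 and 2 at an unadjusted p under 0.05. Cebpa had 14.6 ± 1.74 and 11.6 ± 1.22 FPKM (-0.32, limma adjusted p = 0.382), Zeb2 8.26 ± 0.826 and 6.64 ± 1.0 FPKM (-0.30, adjusted p = 0.440) and Maf 92.0 ± 9.26 and 80.3 ± 8.92 FPKM (-0.20, adjusted p = 0.558). Of 10 tested genes of the B7 family and V-set regulators, to which Vsig4 is related, 7 were above 0, with a median of 0.02 and 1 at an unadjusted p under 0.05. That 1 was the joined entry of Gp49a and Lilrb4, with 2.53 ± 0.509 and 3.75 ± 1.17 FPKM (log2 fold change 0.47, limma adjusted p = 0.483). Cd274, the ligand PD-L1, had 1.60 ± 0.433 and 2.28 ± 0.597 FPKM (0.40, adjusted p = 0.540).

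Of 12 genes of the interleukin 4, interleukin 10 and glucocorticoid response 3 were above 0, with a median of -0.17 and 2 at an unadjusted p under 0.05. Nr3c1, the glucocorticoid receptor, had 40.4, 39.3, 49.4 and 41.9 FPKM in the WT libraries and 38.2, 29.2, 31.3 and 33.9 in the KO libraries. Socs3, a feedback inhibitor of cytokine signalling, had 3.14, 3.40, 3.39 and 3.81 FPKM in the WT libraries and 2.45, 2.53, 2.22 and 2.97 in the KO libraries. Both had every KO library below every WT library, a pattern of 1.61% of all genes, with log2 fold changes of -0.36 (limma adjusted p = 0.347) and -0.37 (adjusted p = 0.353). They were named for the smallest p of their list. Over the 280 tested genes of all lists, 3 had this pattern and 3 the reverse, which 3.89% of all genes had. Of 15 macrophage chemokines and receptors 9 were above 0, with a median of 0.05 and 3 at an unadjusted p under 0.05, against 54.4% and 10.3% of all genes. Of those 3, Ccl8 stood higher in the KO libraries, while Cxcl14 (-0.34, limma adjusted p = 0.424) and Ccl24 (-0.40, adjusted p = 0.468) stood lower.

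Markers of other cells in the muscle gave these levels, and their part in the difference of Vsig4 was not tested. Of 14 tested genes of monocytes and inflammatory macrophages 5 were above 0, with a median of -0.02, and the list summed to 122 to 155 FPKM in the WT libraries and 113 to 168 in the KO libraries. Plac8, a gene of inflammatory monocytes, had means of 6.80 and 14.3 FPKM, with 31 FPKM in KO replicate 4 (0.81, limma adjusted p = 0.537). Its log2 fold change was 0.37 without that library. Of the 14 genes 9 were below 0, and the next by p after Plac8 stood lower in the KO libraries. They were Thbs1, with 5.07 ± 1.92 and 3.49 ± 1.63 FPKM (-0.49, limma adjusted p = 0.706), and Ccl2, with 2.26 ± 0.985 and 1.67 ± 1.44 FPKM (-0.46, adjusted p = 0.746). Dendritic cell genes summed to 251 to 339 FPKM in the WT libraries and 217 to 314 in the KO libraries, 2 of 8 being above 0. H2-Aa, an MHC class II chain, had 98.0 ± 15.6 and 75.1 ± 16.3 FPKM (-0.39, adjusted p = 0.465). Of 13 T and NK cell genes 10 stayed under 1 FPKM in every library. Blood endothelial genes summed to 168 to 218 FPKM in the WT libraries and 168 to 289 in the KO libraries, with 9 of 12 above 0.

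Red cell genes had the median furthest from 0 among the cell types, at 0.87. Of their 6 tested genes 6 were above 0, and 0 had an unadjusted p under 0.05. Their sums overlapped, at 513 to 1339 FPKM in the WT libraries and 657 to 3188 in the KO libraries, with the highest in KO replicate 1. Tendon genes lay on the other side, with 0 of 7 above 0, a median of -0.61 and 2 at an unadjusted p under 0.05. They summed to 103 to 179 FPKM in the WT libraries and 66.8 to 160 in the KO libraries. Adipocyte genes had 2 of 10 above 0, with a median of -0.28 and 3 at an unadjusted p under 0.05. Fibroblast genes had 3 of 12 above 0, with a median of -0.14 and 1 at an unadjusted p under 0.05. Neutrophil genes summed to 16.3 to 42.9 FPKM in the WT libraries and 5.89 to 89.3 in the KO libraries, and B cell genes to 56.0 to 75.8 and 61.9 to 66.9. Mast cell genes summed to 58.3 to 68.1 and 47.2 to 103, satellite cell genes to 44.1 to 54.6 and 41.4 to 49.5, and Schwann cell genes to 72.8 to 93.2 and 75.5 to 101. Genes of muscle fibres summed to 63210 to 72936 FPKM in the WT libraries and 59956 to 71866 in the KO libraries, although the fast myosin gene Myh4 was listed at 0 in all 8. Tnnt3 ran from 0 to 8888 FPKM and Atp2a1 from 0 to 6599 FPKM over the libraries, so these sums depend on entries listed at 0 in some. None of the 280 genes tested over the 28 lists passed the limma threshold, against 0.0505% of all genes. That share is too low for the count of 0 to be read as a result. Of the 280, 21 had an unadjusted p under 0.05, against 10.3% of all genes.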

How the data were processed

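Polyadenylated RNA of 8 quadriceps samples was sequenced to a stated 50 M (M for mega) read pairs of 150 bases, per the labels' protocols. The authors deposited FPKM per gene and library, per the file headers. The submitters' processing notes name the build mm10 and, with no roles, Cufflinks 2.2.1, Bowtie2 2.2.6, TopHat2 2.1.1 and FastQC. The annotation, filters and strand setting are not given in the sources used here. Because an FPKM is a share of its library, one very high entry lowers all others after rescaling.

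Each table held 46036 entries. The 2379 without a gene name carried 65.8% to 93.2% of summed FPKM and were left out. For 344 names on several entries the entry with the highest mean was used. The lowest values implied 6.07 to 39 M fragments per library, with no common step, so depth was not recovered. Genes averaging 1 FPKM or more (11878), 185 of them listed at 0 in some library, were compared with limma 3.58.1 in R 4.3.3 on log2(FPKM + 0.5). The model held genotype alone, with a trended variance, two-sided, and Benjamini-Hochberg adjustment over all genes (threshold 0.05). The 8 libraries held no identical pair. The script was tested on simulated data.

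The 10 genes and the 28 gene lists were chosen with earlier results of these data known. Named were Mss51, the 10 genes, up to 3 genes of the smallest p per list, and the 5 genes most like Vsig4 by Pearson r over libraries and after centring. Predicted genes were counted only. One entry that this rule picked is not reported here. Alternatives were other pseudocounts (0.1 and 1), filters, scalings, variance settings, a replicate block and single libraries left out.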

Additional observations from a re-analysis of the deposited data

Results flagged for a closer look

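In 158 groups of 4 libraries, 6 held a library whose gap to its nearest neighbour exceeded 0.83 of the group's range, the 95% value of Dixon's test. Chance alone flags about 1 group in 20. None of the 6 is one of the macrophage genes chosen by name. Mss51 in the KO libraries had a gap of 0.893 of the range, set by 340 FPKM in KO replicate 1. Plac8 in the KO libraries had 0.943, set by 31 FPKM in KO replicate 4. Ccl2, a monocyte chemokine, had 0.918 in the KO libraries, set by 3.84 FPKM in KO replicate 2. Maf had 0.872 in the WT libraries, set by 78.2 FPKM in WT replicate 4. The summed FPKM of B cell genes (0.834) and of the B7 family and V-set regulators (0.846) each had 1 WT library apart.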

How the results depend on the processing

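Of the 10 macrophage genes 0 passed the threshold under any of 22 alternatives. The log2 fold change of Vsig4 stayed above 0 at 0.72 to 1.10 in the 21 in which it was fitted (adjusted p 0.0579 to 0.9999), and at 0.81 to 0.96 with each library left out. It was not fitted under a minimum mean of 5 FPKM. The excess of Vsig4 over the mean of the other 9 was 0.63 to 1.005, and the median of the 9 was -0.09 to 0.21. All told 6 genes passed the threshold, and 114 (60 higher, 54 lower) after rescaling to TPM over named genes. Under that scaling 2 single entries set the sums and the Vsig4 groups overlapped. An equal sum without those entries was added after the data were seen and gave 5 genes and Vsig4 groups that did not overlap. Leaving out 1 library gave 4 to 125 genes, the 125 without KO replicate 1. Taf12 passed the threshold without KO replicate 4 (log2 fold change 0.735, limma adjusted p = 0.0274) but not with all 8 libraries.

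The sign turned after rescaling to TPM for Lyve1 (-0.0905), Folr2 (-0.14), C1qa (-0.0295), C1qb (-0.0192), C1qc (-0.11), Adgre1 (-0.0842), Btf3l4 (-0.16) and Vps29 (-0.15). With the equal sum it turned for Lyve1 (-0.0035), Folr2 (-0.0475), C1qc (-0.0159), Adgre1 (-0.0019), Btf3l4 (-0.0770) and Vps29 (-0.0598). With single libraries left out it turned for Mrc1 (-0.13 to 0.12), Folr2 (-0.0412 to 0.16), Adgre1 (-0.0110 to 0.24), Pthlh (-0.14 to 0.0059), Btf3l4 (-0.0096 to 0.0932), Vps29 (-0.0308 to 0.13) and Csf1r (-0.25 to 0.0028). The cause was not tested.

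With the replicate number as a block, 0 genes passed (958 at an unadjusted p under 0.05), and Mss51 kept its log2 fold change of 3.07 with an adjusted p of 0.0530. Samples with the same number had correlations of their deviations of -0.0105, -0.0775, -0.0809 and 0.0093. These give no sign of pairing by number, but they cannot exclude that some samples shared a batch. Depth is unknown, so the counting error of low values such as those of Vsig4 is unknown too.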
